A study of Mus musculus with 6 samples.

Results

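Antiviral effector genes encode, for the most part, proteins that act on viruses inside or at the surface of an infected cell. A set of 10 genes under this name was examined in kidney fibroblasts. The fibroblasts were grown with or without T helper cells that make interleukin-17 (Th17 cells). The genes are Mx1, Mx2, Rsad2, Bst2, Ifi44, Ifitm1, Ifitm2, Ifitm3, Samhd1 and Xaf1. They were chosen by name, with earlier results of these data known, and all 10 were found among the 34745 genes of the table. To examine how Th17 cells act on fibroblasts, the study sequenced RNA of wild-type primary mouse renal fibroblasts, the cells that lay down matrix between the tubules, which were grown from digested kidneys. The fibroblasts were left for 6 h to attach and were then cultured alone (3 libraries) or for 24 h beneath an insert with 0.4 μm pores that held Th17 cells (3 libraries), so medium was shared and cell contact was not. The Th17 cells had been induced from spleen CD4+ T cells with interleukin-1β, interleukin-6, interleukin-23 and an antibody against interferon-γ. Whether lone fibroblasts had an empty insert is not given, nor how long they were cultured or whether their medium matched that of the coculture. It is also not given whether replicate libraries stem from different cultures or animals. SD, SE and p therefore measure the spread between these libraries, which may be technical. The age and strain of the mice that gave the fibroblasts are not in the labels either, though the study names Balb/c mice for its animal experiments.

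These genes are classic interferon-induced genes. Type I interferons bind the receptor made of Ifnar1 and Ifnar2, and the kinases Jak1 and Tyk2 then activate transcription factors that bind an interferon-stimulated response element in DNA. Interferon-γ acts through Ifngr1 and Ifngr2 and on another element, the gamma-activated sequence. Fibroblasts respond to both, and a low level of type I interferon keeps many of these genes expressed without infection.

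The promoters of the genes are shown first, and their part in the changes of level was not tested. RefSeq promoter sequences of mouse build GRCm38.p6 (250 bases before to 50 after the transcription start) were matched for 8 of the 10 genes, and Mx1 and Mx2 were not matched. The core of the response element, GAAANNGAAA on either strand, was present in 4 of the 8 (Rsad2, Bst2, Ifitm2 and Ifitm3), and 3.44% of all 32851 promoters of this length hold it. The same repeats with a spacer shorter or longer by 1 base, searched after the sequences had been seen, were GAAANGAAA (Ifi44 and Xaf1, 3.17% of all promoters) and GAAANNNGAAA (Rsad2 and Ifi44, 2.75%). The core of the gamma-activated sequence, TTCNNNGAA, was found in Bst2, Ifitm3 and Samhd1, and in 8.3% of all promoters. The Ifitm1 promoter held none of the 4 patterns. These are matches of letters and not measured binding. In the stretches below, read 5′ to 3′ on the strand of each gene, capitals mark the GAAA repeats of any of the 3 spacings or their reverse complement.
Rsad2, chr12:26456503-26456602, minus strand, bases −150 to −51: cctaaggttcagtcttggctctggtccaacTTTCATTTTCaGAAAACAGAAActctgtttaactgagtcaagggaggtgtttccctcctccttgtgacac
Bst2, chr8:71537523-71537622, minus strand, bases −150 to −51: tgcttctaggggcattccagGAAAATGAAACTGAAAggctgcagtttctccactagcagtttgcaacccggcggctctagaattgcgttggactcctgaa
Ifi44, chr3:151749941-151750040, minus strand, bases −130 to −31: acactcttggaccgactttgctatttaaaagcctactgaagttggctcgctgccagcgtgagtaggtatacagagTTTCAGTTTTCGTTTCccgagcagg
Ifitm2, chr7:140955992-140956091, minus strand, bases −130 to −31: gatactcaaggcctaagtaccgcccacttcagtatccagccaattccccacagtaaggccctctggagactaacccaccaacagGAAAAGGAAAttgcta
Ifitm3, chr7:141010715-141010744, minus strand, bases 1 to 30: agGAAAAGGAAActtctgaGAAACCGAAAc
Xaf1, chr11:72301629-72301658, plus strand, bases 1 to 30: tgtgtgcaaaGAAACGAAActccacagaag
In Bst2 a pair of matches to GAAANNGAAA overlap, and in Ifi44 the matches of both other spacings overlap. In Ifitm3 and Xaf1 the repeats lie just after the RefSeq start, from which all positions are counted. The deposited Ifi44 gene begins upstream of its RefSeq start, at 151749960, so its matches lie across that start or inside the gene. Ifitm2 and Ifitm3 share the match GAAAAGGAAA, and Ifitm3 has a further match, GAAACCGAAA, that the Ifitm2 promoter lacks.

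Library totals lay between 12050529 and 13209581 counts, so both groups were sequenced to a similar depth, and 3 counts corresponded to 0.223 to 0.254 CPM (counts scaled to library totals that TMM, the trimmed mean of M values, has adjusted). Values after ± are the SD of 3 libraries. Fibroblast identity was checked with 16 marker genes, of which 15 were tested. Their summed level was 44600 to 46300 CPM in lone and 19600 to 22400 CPM in cocultured libraries, with 11 lower and 1 higher in coculture (median log2 fold change −0.53), and they include abundant transcripts such as Col1a1 and Vim in every library. Of 13088 genes tested, 20.0% were lower and 17.1% higher with an adjusted p below 0.05 (edgeR's quasi-likelihood test, Benjamini-Hochberg over all genes tested). The lower genes were 53.8% of these calls, but 43.9% with library size as the only scaling and 44.2% with limma on log2(FPKM + 1). The prevailing direction of these calls thus changed with the scaling or test. Among calls that also had a fold change above 2, the lower genes were 66.8%, 61.9% and 64.2% in the same order.

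Coculture with Th17 cells was associated with a marked decrease of antiviral effector transcripts. Of the 10 genes 9 had enough counts to be tested, and these 9 were lower with an adjusted p below 0.05, where 20.0% of all genes tested were. A decrease of more than 2-fold was found for 8 of the 9, against 7.78% of all genes tested, and Ifitm2 was the gene that fell by less. In CPM the lone and cocultured libraries of these 9 genes were separate, and 26.1% of all genes tested were lower without overlap. The genes were chosen with earlier results of these data known, so these shares describe them and are no independent test. The median log2 fold change of the 9 was −1.70, against 0.0038 for all genes tested, and the range ran from −5.48 for Mx1 to −0.29 for Ifitm2. In bulk RNA, fewer expressing cells and less RNA per cell cannot be told apart. Together the 10 genes took 0.354% to 0.356% of the counts of lone libraries and 0.110% to 0.120% of those of cocultured libraries.

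**Figure D1:**
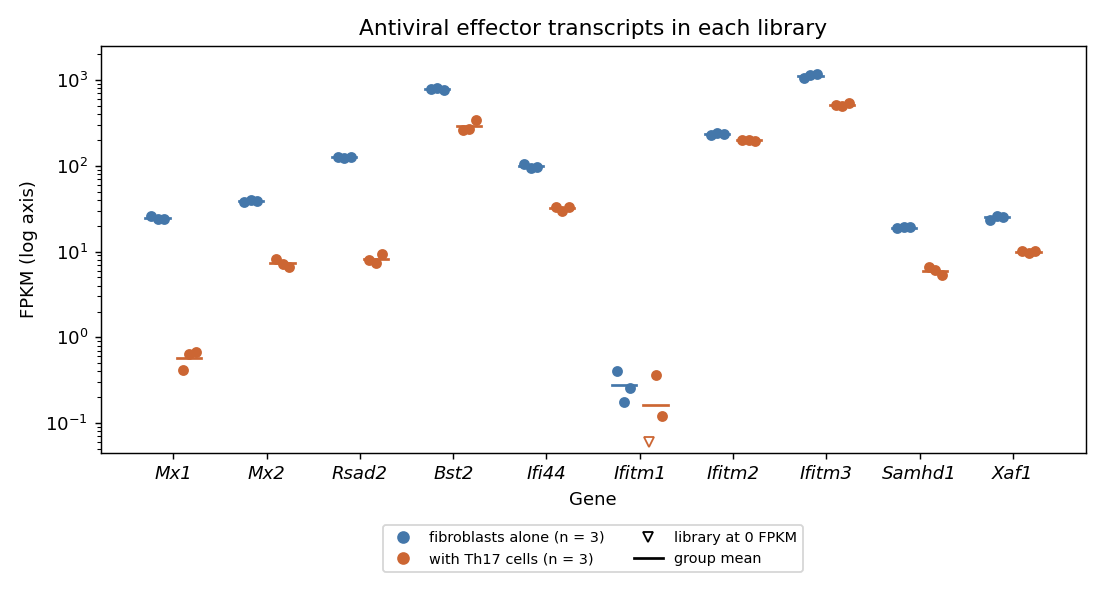
Level of each antiviral effector gene in FPKM (fragments scaled to gene length and library total, log axis) in each of the 6 libraries, with a line at the group mean. Lone libraries lie above cocultured libraries for every gene but Ifitm1, whose groups overlap and which had 1 cocultured library at 0 (open triangle).

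Macrophages also express these effectors, and their markers were lower in coculture too. Of 22 markers 11 were tested and 10 were lower (median −3.26), where 20.0% of all genes tested were. The summed level of the 22 markers was 74.8 to 81.6 CPM in lone and 21.1 to 22.3 CPM in cocultured libraries. Adgre1, the F4/80 antigen, had 71, 47 and 55 counts in lone libraries and 0 in each cocultured library. Ptprc, the CD45 antigen, had 14, 12 and 11 counts against 0. Other markers fell less, and Cd68 (−0.93) and Csf1r (−1.78) were still counted in each cocultured library. Cd14 did not pass (−0.0006, adjusted p = 0.998 in edgeR). Itgax had no count in any library, and 8 of the 22 had no count in any cocultured library. The part of macrophages in the decrease of the effectors was not tested. Of 21 T cell markers 2 were tested, Lck was lower (−1.04) and Trac did not pass (0.031), and Cd3d, Il17a and Il17f had no count in any library. Of 10 endothelial markers 2 were tested, Kdr was lower (−5.34) and Pecam1 did not pass (0.10, adjusted p = 0.862 in edgeR). Of 11 epithelial markers 4 were tested, Krt19 and Lrp2 were lower (−2.63 and −2.36), and Krt18 (−0.40, adjusted p = 0.441 in edgeR) and Aqp1 (0.52, adjusted p = 0.0531 in edgeR) did not pass. Mitochondrial transcripts made up 3.15% to 3.42% of lone and 4.13% to 4.55% of cocultured libraries, and their part in the result was not tested.

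The Mx genes encode dynamin-like GTPases that form rings on incoming viral particles and block their replication. Mx1 (ENSMUSG00000000386, GRCm38 chromosome 16, 97447035 to 97462907, protein-coding) was counted 1805, 1630 and 1523 times in lone libraries and 29, 42 and 45 times with Th17 cells. No cocultured library came near a lone one, and the transcript was left close to the low end of the tested genes. The mean fell from 132.5 ± 6.54 to 2.96 ± 0.698 CPM, a 44.7-fold decrease (log2 fold change −5.48 with an SE of 0.14, adjusted p = 2.31e-08 in edgeR), and only 35 of the genes tested had a lower log2 fold change. Mx2 (ENSMUSG00000023341, chromosome 16, 97535308 to 97560900) lies on the opposite strand, with its start 72.4 kb from that of Mx1. It had 2561, 2623 and 2404 counts alone and 545, 451 and 430 counts in coculture. It fell from 203 ± 4.23 to 36.2 ± 3.97 CPM, a 5.60-fold decrease (log2 fold change −2.49 with an SE of 0.0856, adjusted p = 8.03e-08 in edgeR). Many inbred mouse strains carry Mx alleles that make no working protein, and GENCODE lists Mx2 as a polymorphic pseudogene, so these counts are levels of RNA and no measure of Mx protein. Of the distinct 50-base stretches of Mx1 transcripts 4.37% also occur in other genes, mainly Mx2. This is a share of sequence and not of reads. Mx2 had 1426 counts over the cocultured libraries and Mx1 had 116. Whether reads of Mx2 were counted for Mx1 was not tested.

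The Mx genes did not keep their proportion. The ratio of Mx1 to Mx2 FPKM was 0.679, 0.599 and 0.611 in lone libraries and 0.0513, 0.0898 and 0.101 in cocultured libraries. All lone ratios exceeded all cocultured ratios, and the lowest ratio was that of cocultured replicate 1. The mean log2 ratio differed by −3.02 (exact two-sided permutation test, p = 0.1, adjusted p = 0.1 over the 3 ratios tested, where 0.1 is the smallest value that 3 libraries against 3 allow). This test cannot reach 0.05, and on FPKM + 1, which shrinks low levels, the difference was −1.75.

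Rsad2 encodes viperin, a radical S-adenosylmethionine enzyme that turns cytidine triphosphate into a nucleotide that ends viral RNA chains. Rsad2 (ENSMUSG00000020641, chromosome 12, 26442753 to 26456452, protein-coding) was counted 8036, 7808 and 7294 times in lone libraries and 506, 443 and 575 in coculture. Lone libraries were nearly alike, with a coefficient of variation of 0.646% in CPM, and cocultured libraries varied by 11.8%. Its level fell 16-fold, from 619 ± 4.0 to 38.7 ± 4.57 CPM (log2 fold change −4.0 with an SE of 0.0898, adjusted p = 1.64e-08 in edgeR). Its neighbour at 12.8 kb, Cmpk2, encodes a mitochondrial nucleotide kinase that acts with viperin. Cmpk2 decreased from 277.5 ± 6.85 to 33.9 ± 1.47 CPM (log2 fold change −3.03 with an SE of 0.0658, adjusted p = 1.54e-08 in edgeR). The ratio of Rsad2 to Cmpk2 FPKM was 1.46, 1.45 and 1.51 alone and 0.703, 0.709 and 0.852 with Th17 cells, so the gene with more RNA per length was Rsad2 in each lone library and Cmpk2 in each cocultured library. The mean log2 ratio differed by −0.97 (exact two-sided permutation test, p = 0.1, adjusted p = 0.1).

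Bst2 encodes tetherin, a membrane protein that holds budding enveloped viruses at the cell surface. Bst2 (ENSMUSG00000046718, chromosome 8, 71534264 to 71537437, protein-coding) gave 7920, 7981 and 7074 counts alone and 2645, 2600 and 3309 counts with Th17 cells. Cocultured replicate 3 was the highest of its group and still far below any lone library in FPKM (339 against at least 768). The mean fell 2.82-fold, from 614 ± 16.2 to 217.5 ± 29.8 CPM (log2 fold change −1.50 with an SE of 0.0926, adjusted p = 2.49e-06 in edgeR). Bst2 had the second highest level per length of the 10 genes in both groups, with 787 FPKM alone and 291 FPKM in coculture.

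The Ifitm genes encode small membrane proteins that hinder fusion of viruses with cell membranes, and 3 of them lie within a cluster on chromosome 7. Ifitm3 (ENSMUSG00000025492, chromosome 7, 141009586 to 141010770, protein-coding) gave 9576, 10111 and 9495 counts alone and 4526, 4284 and 4667 in coculture. It was the most abundant of the 10 genes per length, ranking 18 among the 13088 genes tested in lone fibroblasts (1128 FPKM) and 57 in cocultured fibroblasts (517 FPKM). It fell 2.28-fold, from 781.5 ± 33.3 to 343 ± 10.7 CPM (log2 fold change −1.19 with an SE of 0.0578, adjusted p = 5.37e-07 in edgeR).

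Ifitm2 (ENSMUSG00000060591, chromosome 7, 140954839 to 140955961, protein-coding) gave 1881, 1941 and 1764 counts alone and 1650, 1585 and 1562 counts with Th17 cells. The groups lay close to each other without overlapping in CPM. The decrease from 149.5 ± 3.69 to 122 ± 2.90 CPM was 1.23-fold (log2 fold change −0.29 with an SE of 0.0579, adjusted p = 0.00366 in edgeR), the smallest of the 9. Of the 50-base stretches in Ifitm2 transcripts 48.5% also occur in other annotated genes, mainly Gm45717, which overlaps Ifitm2 on the same strand, so its counts are uncertain. For Ifitm3 this share was 10%. The ratio of Ifitm2 to Ifitm3 FPKM was 0.212, 0.208 and 0.201 in lone libraries and 0.394, 0.400 and 0.362 in cocultured libraries, so Ifitm2 made up more of the pair in each cocultured library. The mean log2 ratio differed by 0.90 (exact two-sided permutation test, p = 0.1, adjusted p = 0.1).

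Ifitm1 (ENSMUSG00000025491, chromosome 7, 140967221 to 140969825, protein-coding), whose product sits mainly at the cell surface, was barely detected. It had 7, 3 and 4 counts in lone and 0, 6 and 2 counts in cocultured libraries, and the groups overlapped. Too few counts were present for a test, and a difference was not detectable at this depth. Ratios of plain FPKM to the other Ifitm genes were not computed because 1 library was at 0. On FPKM + 1 the mean log2 ratio differed by 0.082 for Ifitm1 to Ifitm2 and by 0.98 for Ifitm1 to Ifitm3. Ifitm1 reached at most 0.406 FPKM, so the added 1 outweighs it and these values mainly carry the other gene. Other relatives at this locus and elsewhere were similarly scarce, with at most 5 counts of Ifitm5 and 1 count of Ifitm6 or Ifitm7 in any library. Ifitm10 had 11, 16 and 17 counts alone and 5, 10 and 8 in coculture (log2 fold change −1.0 with an SE of 0.399, adjusted p = 0.0795 in edgeR).

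**Figure D2:**
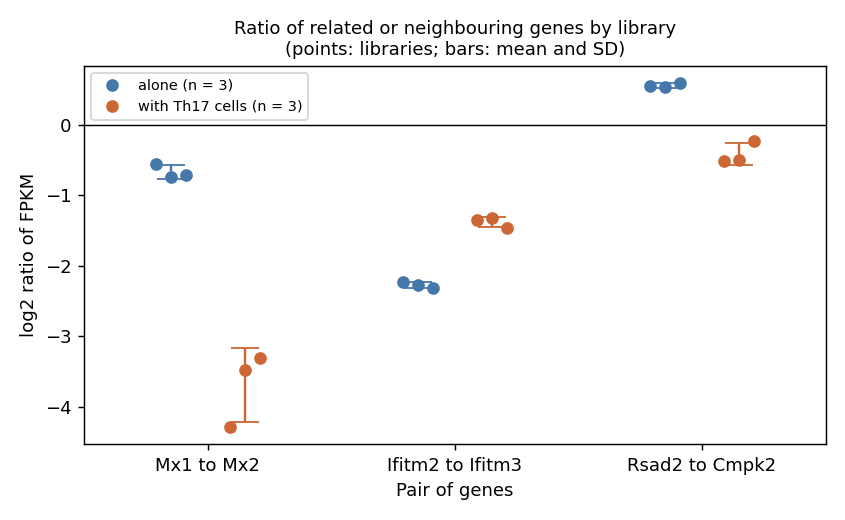
Log2 ratio of deposited FPKM between related or neighbouring genes in each library (points), with bars that span the SD on either side of each group mean (n = 3). The Mx1 to Mx2 and Rsad2 to Cmpk2 ratios were lower and the Ifitm2 to Ifitm3 ratio higher in all 3 cocultured libraries.

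Samhd1 encodes an enzyme that degrades deoxynucleotides and thereby starves reverse transcription of substrate. Samhd1 (ENSMUSG00000027639, chromosome 2, 157097533 to 157135265, protein-coding) gave 2866, 2899 and 2668 counts alone and 1004, 886 and 781 in coculture. The cocultured libraries were all under the lone ones, and replicate 3 was the lowest. The mean fell 3.32-fold, from 226 ± 3.29 to 67.9 ± 7.76 CPM (log2 fold change −1.73 with an SE of 0.0861, adjusted p = 6.24e-07 in edgeR). Of 12 genes that supply deoxynucleotides, all tested, 7 passed as lower and 5 did not pass, with a median log2 fold change of −0.31 over the list. None of the 7 fell by more than 2-fold, and 20.0% of all genes tested were lower. The lowest were Tk1, thymidine kinase (−0.98), and Rrm1, the large subunit of ribonucleotide reductase (−0.81). The highest, none of which passed, were Tk2 (0.13, edgeR adjusted p = 0.372), Dguok (0.083, edgeR adjusted p = 0.625) and Rrm2b (0.017, edgeR adjusted p = 0.924).

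Ifi44 and Xaf1 were also lower in coculture. Ifi44 (ENSMUSG00000028037, chromosome 3, 151730922 to 151749960, protein-coding), an interferon-induced gene whose product is found in the cytoplasm, had 10369, 9207 and 8853 counts alone and 3236, 2779 and 3187 in coculture. It fell 3.25-fold, from 760 ± 40.0 to 234 ± 13.4 CPM (log2 fold change −1.70 with an SE of 0.0674, adjusted p = 1.6e-07 in edgeR). Its relative Ifi44l, 8.78 kb away, had 239, 253 and 184 counts alone and 3, 7 and 10 in coculture. Ifi44l was thus close to the detection floor with Th17 cells, and it fell by 5.12 on the log2 scale (SE 0.274, adjusted p = 9.75e-07 in edgeR). Xaf1 (ENSMUSG00000040483, chromosome 11, 72301629 to 72313733, protein-coding) encodes a protein that binds the apoptosis inhibitor XIAP. It had 1802, 1929 and 1782 counts alone and 766, 699 and 751 counts in coculture. The groups were far apart and each was tight, and the mean fell 2.62-fold, from 148 ± 6.79 to 56.3 ± 1.24 CPM (log2 fold change −1.39 with an SE of 0.0649, adjusted p = 4.21e-07 in edgeR). Of 9 inhibitor of apoptosis genes and their antagonists 7 were tested, and Birc5, which also serves in cell division, passed as lower (−0.94, SE 0.163, edgeR adjusted p = 0.00175). The next lowest were Birc6 (−0.038) and Htra2 (−0.019), and the highest were Xiap (0.48, SE 0.548), Birc3 (0.18) and Birc2 (0.043), with edgeR adjusted p from 0.114 to 0.909 for these 5 genes. The median of the 7 was −0.0048.

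**Figure D3:**
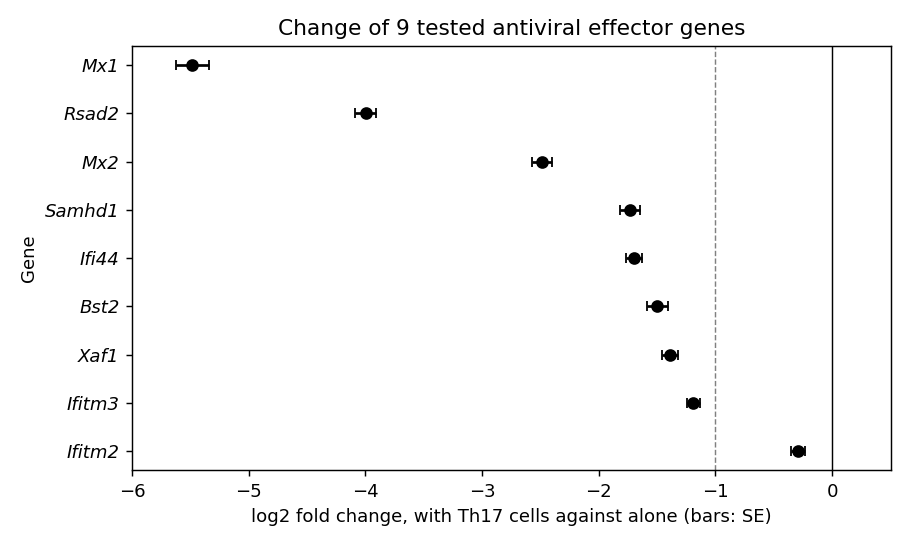
Log2 fold change of the 9 tested antiviral effector genes, cocultured against lone fibroblasts (edgeR, n = 3 each; bars are SE), ordered by size. All lie left of 0, 8 lie beyond the dashed line of a 2-fold decrease, and Mx1 at −5.48 and Ifitm2 at −0.29 mark the ends.

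The order of the 10 genes by level per length differed between the groups. In lone fibroblasts it ran, in FPKM, from Ifitm3 (1128) through Bst2 (787), Ifitm2 (233), Rsad2 (125), Ifi44 (98.9), Mx2 (39.2), Xaf1 (25.0), Mx1 (24.6) and Samhd1 (19.1) to Ifitm1 (0.279). In this order the libraries of Xaf1 and Mx1 overlapped, and every other neighbouring pair was separate. In cocultured fibroblasts it ran from Ifitm3 (517) through Bst2 (291), Ifitm2 (199), Ifi44 (31.8), Xaf1 (9.98), Rsad2 (8.18), Mx2 (7.30), Samhd1 (5.99) and Mx1 (0.575) to Ifitm1 (0.162). Here Rsad2 and Mx2 overlapped, as did no other tested pair of neighbours. Rsad2 dropped from rank 283 to rank 4557 among the genes tested and Mx1 from rank 1703 to rank 11442, whereas Ifitm2 stayed near the top, at rank 146 alone and 158 in coculture. Ifitm3 and Bst2 together held 77.2% of the summed FPKM of the 10 genes in lone and 75.5% in cocultured libraries, while the sum itself was 2418 to 2526 alone and 1037 to 1138 in coculture.

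Other genes of the pathway were examined from lists written with earlier results of these data known. Beside the counts of each list, 20.0% of all genes tested were lower and 17.1% higher. Of 14 interferon genes 11 had no count in any library, and the others were Ifnb1, with 4, 6 and 4 counts alone and 0, 4 and 3 in coculture, Ifna4 with at most 5 counts and Ifna5 with at most 2. At this depth no difference in these ligands could be tested. Of 21 receptor and signalling genes 19 were tested, with 8 lower and 3 higher (median −0.25). Among the lowest were the transcription factors Irf5 (−2.19, SE 0.137) and Irf7 (−1.92, SE 0.0655). The highest were Socs3, a feedback inhibitor of cytokine receptors (2.53, SE 0.113), Ifngr2 (0.99, SE 0.0583) and Socs1 (0.70, SE 0.155), with edgeR adjusted p of 3.17e-07, 1.86e-06 and 0.00663. Receptor transcripts were uneven. Ifnar2 fell by 0.74 on the log2 scale (edgeR adjusted p = 1.12e-05), and Ifnar1 (−0.012, edgeR adjusted p = 0.901) and Ifngr1 (−0.060, edgeR adjusted p = 0.622) did not pass.

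Of 36 other interferon-induced genes 35 were tested. Among them 34 passed as lower and 1 as higher, with a median log2 fold change of −1.93. The lowest were Ifit3b (−3.48, SE 0.102), Epsti1 (−3.40, SE 0.25) and Ifi27l2a (−3.30, SE 0.159). The gene that was higher was Ifi27, from 17.8 ± 0.955 to 63.3 ± 15.1 CPM (log2 fold change 1.83 with an SE of 0.16, adjusted p = 2.49e-05 in edgeR). After it came Ddx58, the gene of the RNA sensor RIG-I (−1.0, SE 0.0713), and Helz2 (−1.0, SE 0.0939). Of 21 other restriction factors and relatives, 20 were in the table, 17 were tested, 11 were lower and 2 higher, with a median of −0.61. Ifi44l, Trim21 (−2.0, SE 0.102) and Tmem140 (−1.59, SE 0.0985) were the lowest. Zc3h12a, an RNA-degrading enzyme that limits inflammatory transcripts, rose by 1.11 (SE 0.0562, edgeR adjusted p = 6.79e-07), and Ch25h, cholesterol 25-hydroxylase, rose by 0.44 (SE 0.113, edgeR adjusted p = 0.0136). Serinc3 (0.13, edgeR adjusted p = 0.0853) did not pass.

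**Figure D4:**
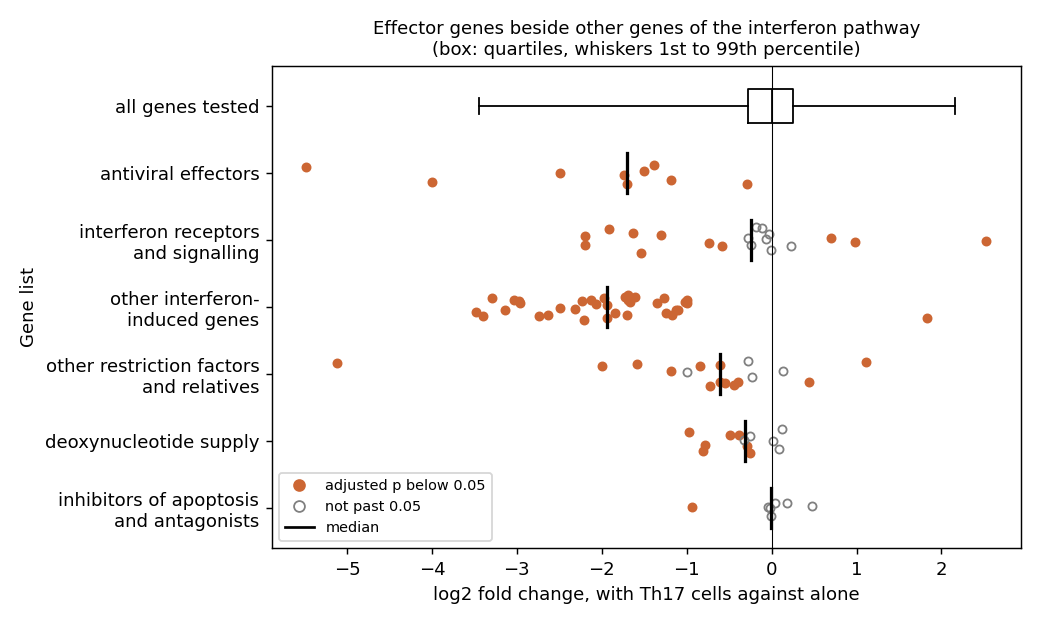
Log2 fold change of each tested gene (points, filled where the edgeR adjusted p was below 0.05) in the antiviral effectors and 5 other lists, with list medians as vertical lines, beside all 13088 genes tested (box). The effectors (median −1.70) and the other interferon-induced genes (median −1.93) lie to the left of 0, except Ifi27 at 1.83.

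The genes on either side along the chromosome were examined next. The nearest tested genes on either side of the 10, leaving out the 10 themselves, numbered 14. Of all genes tested 20.0% were lower and 17.1% higher (median 0.0038). Of these 14 neighbours 8 were lower, 1 was higher and 5 did not pass (median −0.41). Cmpk2 and Ifi44l, both themselves interferon-induced, had the lowest values. The other 12 lay between −1.51 and 0.44. Soga1, 18.3 kb from Samhd1, had a log2 fold change of −0.0049 (edgeR adjusted p = 0.972), and Bace2, 8.02 kb from Mx1, had −0.31 (edgeR adjusted p = 0.479). Prdm15, 231 kb from Mx2, Ptdss2, 112 kb from Ifitm3, and Med31, 86.0 kb from Xaf1, did not pass either (−0.036, −0.20 and −0.13). Gtpbp3, 34.7 kb from Bst2, was higher (0.44, edgeR adjusted p = 0.0132), and Mvb12a, on its other side, was lower (−0.37, edgeR adjusted p = 0.0173). The other lower neighbours were Rnf144a, 27.5 kb from Rsad2 (−1.51), Rbl1, 10.6 kb from Samhd1 (−0.79), Athl1, 7.17 kb from Ifitm2 (−0.57), and Smtnl2, 75.4 kb from Xaf1 (−1.16). Adgrl2 (−0.44) was the nearest tested gene on the other side of Ifi44 but lies 2740 kb away, so it says nothing of the surroundings of Ifi44.

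The genes whose pattern was most like the mean standardised log2 CPM of the 9 tested effectors, among 10028 genes with a mean count of 100 or more in either group, were Phf11d, Tapbp, Lama1, Cd274 and Vcam1. Their Pearson r over the 6 libraries was 0.99974 to 0.99979. The libraries fall into 2 groups, so r mainly carries the difference between groups, and 3.65% of the genes compared had an r above 0.99. Phf11d fell from 405 to 92.6 CPM and Vcam1, an adhesion molecule for white blood cells, from 1007 to 125 CPM. Cd274, which encodes the checkpoint ligand PD-L1, had 97.5 CPM alone and 17.1 CPM in coculture. Tapbp, a chaperone of antigen loading, had 466.5 and 175 CPM, and Lama1, a laminin chain, had 80.1 and 23.9 CPM.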

How the data were processed

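RNA of the fibroblasts was sequenced (NovaSeq, VAHTS library kit). Filtering by the authors used Seqtk, alignment used HISAT2 2.0.4 (build mm10 in the submitters' processing notes), and the fragment counts per gene they deposited come from StringTie 1.3.3b. The deposited FPKM values are scaled by the authors to gene length and library total. Strand use and the treatment of reads that fit several genes are not given in the sources used here. Of the gene identifiers 34267 occur in GENCODE M21 (GRCm38), and 99.9% of these overlap their annotated position. Columns were assigned to libraries from the labels. Symbols on several rows (59) were taken from the row with most counts.

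Counts were tested in R 4.3.3 with edgeR 4.0.16: filterByExpr (minimum count 10), TMM, glmQLFit and glmQLFTest, Benjamini-Hochberg over all 13088 genes tested. An SE is the log2 fold change divided by the square root of F. The study's threshold also asks for a fold change above 2. FPKM was used to compare levels of different genes, to show some levels by library, for summed levels and in the limma alternative. Exact permutation tests used scipy 1.17.1. The common dispersion was 0.0136 (coefficient of variation 11.6%). Depth limits precision as given for 3 counts, and this covers counting error only. Alternatives were DESeq2 1.42.0, other scalings and filters, leaving out each library, a replicate block, glmTreat, and limma 3.58.1 on log2(FPKM + 1). Tests were checked on simulated counts. Python 3.11.15, pandas 2.3.3 and matplotlib 3.10.9 were used.

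The members and lists were chosen with earlier results of these data known. Named are all members, the 3 lowest and 3 highest tested genes of each pathway list, the nearest tested neighbours of the members, and the 5 genes most like them. Some genes that this rule names are not reported here. The receptor genes Ifnar1, Ifnar2 and Ifngr1, Ifitm relatives and single marker genes were named after their values were seen.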

Additional observations from a re-analysis of the deposited data

How the results depend on the processing

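Each of the 9 tested effector genes kept its direction and an adjusted p below 0.05 under the 14 alternatives, and 8 were lower by more than 2-fold under each of those and under glmTreat. Across these alternatives the log2 fold change was −5.60 to −4.03 for Mx1, −4.09 to −3.79 for Rsad2 and −0.31 to −0.23 for Ifitm2, and the value nearest 0 for Mx1 came from limma on log2(FPKM + 1), in which the pseudocount shrinks low levels. For Ifitm2 the adjusted p lay between 0.00241 and 0.0208. Without a filter on low counts Ifitm1 was at −0.84 on the log2 scale (SE 0.935, adjusted p = 0.548 in edgeR). Over all genes, 1524 were called at a fold change above 2, against 626 with limma on log2(FPKM + 1), 791 with glmTreat and 4856 without the fold limit, and 1493 to 1546 when 1 library was left out.

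Same-numbered libraries did not deviate together (correlations of deviations 0.0157, −0.0256 and −0.0036). Counting error can weaken such correlations, so they cannot tell whether these libraries were prepared as pairs. With a replicate block 1495 genes were called, and no call of a member changed. The Mx1 to Mx2 log2 ratio differed by −1.75 on FPKM + 1 and by −3.21 to −2.72 when 1 library was left out. The number of higher restriction factors was 1 to 2 in those fits, and 1 without lone replicate 3. The number of higher inhibitor of apoptosis genes was 0 to 1 in them, with 1 without lone replicate 3 or cocultured replicate 3, and 1 with library size only. With all tested genes within 50 kb as neighbours, 2 were higher and 8 lower. Depth limits Ifitm1 and the interferon ligands.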

Other observations

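Xiap, the binding partner of the Xaf1 product, was far more uneven between libraries of a group than the 9 tested effector genes, which was noticed after its values were seen. It had 422, 278 and 1257 counts in lone libraries and 1381, 1077 and 480 in cocultured libraries, so its groups overlapped, and the difference was not past the threshold (log2 fold change 0.48, SE 0.548, edgeR adjusted p = 0.531).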
